A study of Mus musculus with 6 samples.

Results

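The first step of an endoderm differentiation series was followed here, from mouse embryonic stem cells (ESCs) at day 0 (d0) to Foxa2-positive mesendoderm at day 3 (d3F). The 2 d0 and 2 d3F RNA-seq samples were taken by their labelled time point and sorting markers, 4 of the 6 samples in the series. The other 2 samples, d5FS endoderm, entered only the shared estimate of the spread between replicates. All cells came from 1 double knock-in ESC line, which is heterozygous for a Foxa2-Venus fusion and homozygous for a Sox17-Cherry fusion, so every group carries both reporter alleles.

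The d0 cells were sorted as negative for Venus and for Cherry, and came from cultures thawed on irradiated feeders and kept in medium with serum and LIF. The d3F cells were sorted as positive for Venus and negative for Cherry after 3 days with Wnt3a at 1 ng/ml and Activin A at 10 ng/ml, in a differentiation medium whose listed parts hold neither serum nor LIF. Before differentiation the cultures were depleted of feeders and passaged on gelatine. The sort and the medium changed together between the groups, and their parts cannot be told apart. The replicates are described as independent, but each number (1 or 2) is shared between d0 and d3F, and with 2 samples against 2 an exact permutation test cannot go below p = 0.33. In bulk RNA, fewer cells of a kind and less RNA per cell cannot be told apart.

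Mesendoderm is the transient state from which definitive endoderm and axial mesoderm separate during gastrulation. Nodal and Wnt signals induce it in the epiblast of the embryo, Activin A stands in for Nodal in culture, and T-box and homeobox transcription factors then switch on the germ layer programmes. ESCs in serum and LIF hold the opposite end of this path, a pluripotent state kept by LIF, Stat3 and a set of naive transcription factors, with part of the germline programme expressed at low level.

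The deposited tables give an expected count per gene, the estimated number of read pairs. These summed to 22102086 and 22258890 in d0 and to 22768686 and 20676972 in d3F. Of 24054 genes, 14539 passed the filter on low counts and were tested with edgeR's quasi-likelihood test, and calls required an adjusted p (Benjamini-Hochberg) under 0.05 together with an absolute log2 fold change above 1. Of these, 407 (2.80%) were called higher in d3F and 276 (1.90%) were called lower, 683 (4.70%) in all, and the median log2 fold change over all genes tested was -0.0059. With the replicate number as a block, 810 (5.57%) were called higher and 510 (3.51%) lower, 1320 (9.08%) in all. Genes described below as not called are so in the fit without this block, unless the block is named. Levels are given as TPM, a measure of abundance corrected for transcript length and depth, rescaled so that protein-coding genes alone make up the total, because short noncoding RNAs took 52.7 and 70.3% of the deposited TPM in d0 and 53.1 and 66.7% in d3F. Those RNAs took 4.36 and 11.3% of the counts in d0 and 4.53 and 8.37% in d3F, and in both populations replicate 2 had the larger share. The d0 samples also stood apart in pluripotency genes, with all 19 naive genes tested higher in replicate 2, as described with those genes below. Fold changes are given with the standard error (SE) of the edgeR fit.

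**Figure D1:**
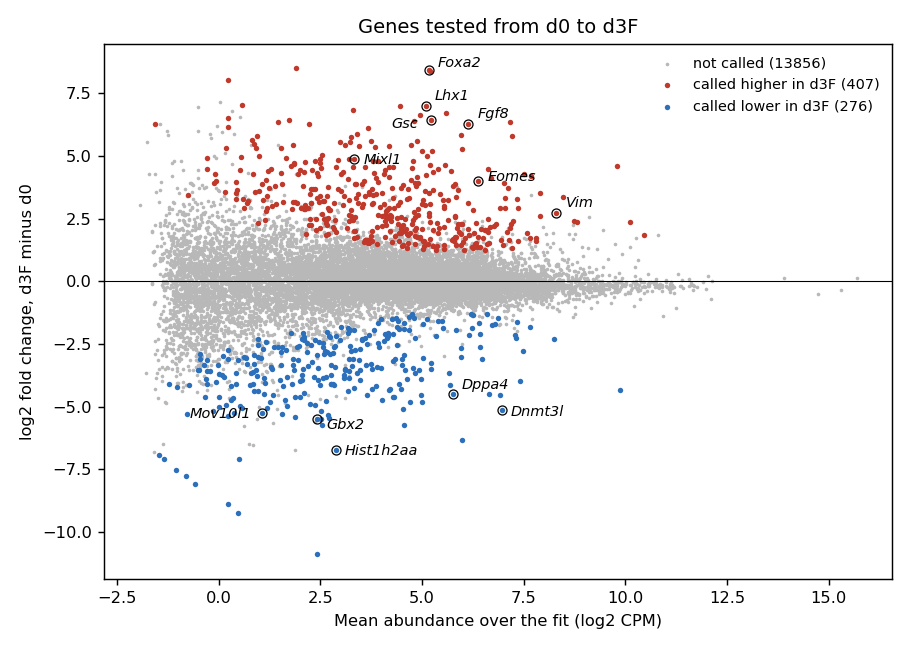
Each point is a gene tested, with its mean abundance in log2 CPM on the horizontal axis and its log2 fold change, d3F minus d0, on the vertical axis. The 407 genes called higher are red, the 276 called lower are blue and the others are grey, and 12 genes named in the text are ringed.

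In all 683 called genes the d0 and d3F values in log2 CPM did not overlap. The same was true of 7409 (51.0%) of the genes tested. It follows that all 683 changed in 1 direction within each replicate number, which is no separate observation. The difference was larger within replicate 2 for 319 of the 407 genes called higher and for 231 of the 276 called lower. Calls rested unevenly on the samples. When each of the 6 samples was left out in turn, 85 genes were called in all 6 fits, 75 of them higher and 10 of them lower, and 90 of the 683 were called in 0 of these fits. Without d3F replicate 2, 97 genes were called, 87 higher and 10 lower, and without d0 replicate 2 the number was 272, with 144 higher and 128 lower. The number of calls also changed when d3F replicate 1, d0 replicate 1 or either d5FS sample was left out. Each such fit holds 1 group with 1 sample and applies the filter on low counts anew. Its calls need not be among the 683, or among the genes tested with all samples.

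**Figure D2:**
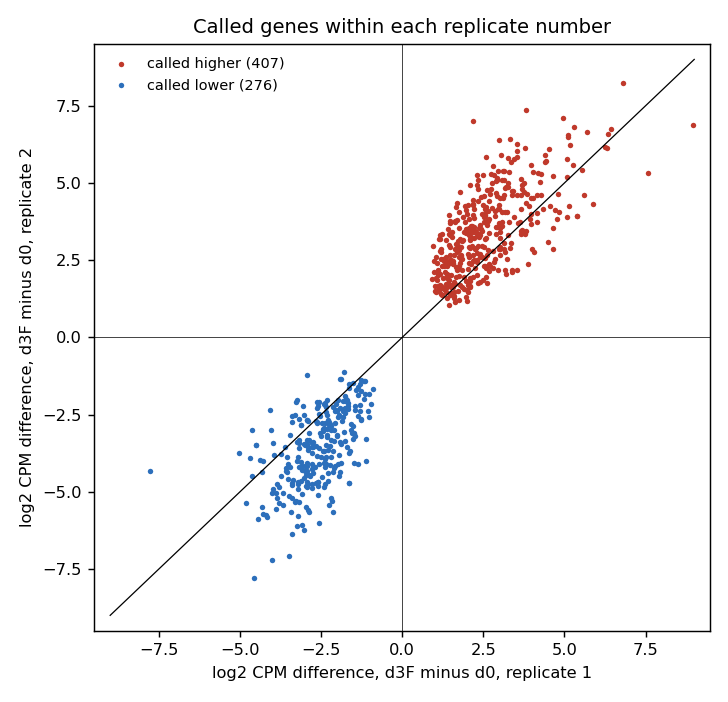
Each point is 1 of the 683 called genes, placed by its log2 CPM difference between d3F and d0 within replicate 1 (horizontal) and within replicate 2 (vertical), with genes called higher in red, genes called lower in blue and the line of equal difference in black. Every point has both differences of 1 sign, as follows from groups that do not overlap. Most points lie on the far side of the line from 0, towards a larger difference in replicate 2.

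The d3F label held against its markers. Foxa2, a forkhead factor of the node, notochord and endoderm, was measured at 0.0438 and 0.176 TPM in d0 and 56.6 and 32.2 TPM in d3F. Its log2 fold change was 8.42 ± 0.69 SE, adjusted p = 0.0024, but the cells were sorted on a Foxa2 fusion and this rise is not an independent result. Lhx1, a LIM homeobox factor of the head organizer, stood at 0.153 and 0.14 TPM in d0 and 18.1 and 21.6 TPM in d3F (log2 fold change 7.01 ± 0.43 SE, adjusted p = 0.00178). Gsc, a homeobox gene of the organizer, went from 0.657 and 0.808 TPM to 62.4 and 76 TPM (log2 fold change 6.43 ± 0.50 SE, adjusted p = 0.0024). Neither gene had overlapping groups, and the d3F samples agreed closely. Mixl1, a homeobox factor needed for endoderm, reached 23 and 10.7 TPM from 0.723 and 0.316 TPM (log2 fold change 4.89 ± 0.51 SE, adjusted p = 0.00595). Eomes, the T-box factor at the head of the definitive endoderm programme, was already present at 4.2 and 1.54 TPM in d0 and stood at 42.1 and 54.4 TPM in d3F (log2 fold change 4.02 ± 0.44 SE, adjusted p = 0.00695). All 5 were called in each of the 6 fits that left a sample out.

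Of 18 mesendoderm transcription factors, 17 were tested, 10 were called higher and 0 lower, with a median log2 fold change of 2.92. Between 5 (without d3F replicate 1) and 9 (without d0 replicate 1) were called higher with 1 sample left out. Beside the 5 markers, Noto, a homeobox gene of the node and notochord, rose from 0.0876 and 0.105 TPM to 6.66 and 3.26 TPM (log2 fold change 5.31 ± 0.78 SE, adjusted p = 0.0137). T (brachyury) rose from 15.4 and 2.98 TPM to 136 and 47.2 TPM (log2 fold change 3.25 ± 0.75 SE, adjusted p = 0.0487), and was called in 1 of the 6 fits without a sample. The d0 samples were far apart for this gene, with replicate 1 over replicate 2, and d3F kept that order. Otx2, a homeobox gene of the epiblast and anterior head, rose from 20.2 and 3.34 TPM to 72.4 and 102 TPM (log2 fold change 2.92 ± 0.67 SE, adjusted p = 0.0491), and missed the threshold with the replicate block (adjusted p = 0.0505). Foxh1, the partner of Smad proteins in Nodal signalling, was abundant and not called, at 96.6 and 28.3 TPM in d0 and 92 and 105 TPM in d3F (log2 fold change 0.64, adjusted p = 0.499). Sp5, a Wnt target, was not called either, at 20.6 and 3.06 TPM in d0 and 12.2 and 9.8 TPM in d3F.

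Of 16 endoderm transcription factors tested, 4 were called higher and 0 lower, and the median was 0.08. Log2 fold changes were positive for 8 and negative for 8, from -4.84 to 5.41. With the block 4 were called higher and 3 lower. Without d0 replicate 2 or d3F replicate 2 the count was 1. Gata6 was the most even of them, at 0.197 and 0.211 TPM in d0 and 8.29 and 10.3 TPM in d3F (log2 fold change 5.41 ± 0.47 SE, adjusted p = 0.00269). Gata4 rose from 0.657 and 0.983 TPM to 7.72 and 31.3 TPM (log2 fold change 4.47 ± 0.80 SE, adjusted p = 0.0231), with the d3F samples apart. Sox17, whose Cherry fusion the gate excluded, rose from 0.372 and 0.176 TPM to 2.25 and 5.86 TPM (log2 fold change 3.91 ± 0.65 SE, adjusted p = 0.0173). Foxa1 went from 0.197 and 0.0351 TPM to 1.39 and 0.72 TPM (log2 fold change 3.12 ± 0.68 SE, adjusted p = 0.0401). Hhex, a homeobox gene of anterior endoderm, was not called at 2.12 and 1.61 TPM in d0 and 4.67 and 4.79 TPM in d3F (adjusted p = 0.187), and Foxa3 had a log2 fold change of 0.20 (adjusted p = 0.816). Elf3 was at 9.46 and 20.7 TPM in d0 and 4.64 and 3.665 TPM in d3F (log2 fold change -2.10, adjusted p = 0.0576). It was called lower with the block (adjusted p = 0.038).

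**Figure D3:**
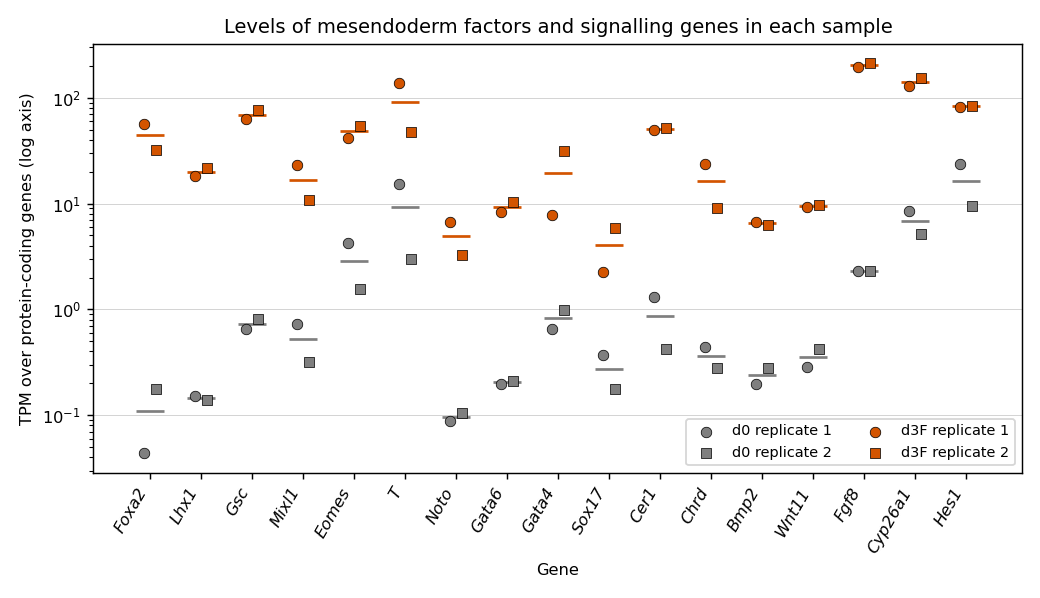
Levels in TPM over protein-coding genes (log axis) of 17 genes called higher, with grey points for d0, orange points for d3F, circles for replicate 1, squares for replicate 2 and a line at the mean of each pair. For every gene shown both d3F points lie above both d0 points, and the gap between the replicates is widest for T and Foxa2 in d0 and for Gata4 in d3F.

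Among factor families matched by symbol, 29 Fox genes were tested, of which 5 were called higher and 1 lower. Foxq1, a forkhead repressor, rose from 0.197 and 0.351 TPM to 21 and 42.4 TPM (log2 fold change 6.74 ± 0.68 SE, adjusted p = 0.00487) and was called in every fit without a sample. Foxn4 fell from 1.36 and 0.843 TPM to 0.133 and 0.0313 TPM (log2 fold change -3.72 ± 0.74 SE, adjusted p = 0.0305) but was called in 0 of the 6 fits without a sample. Of 18 Sox genes, Sox9, a factor of many progenitor tissues, rose beside Sox17 (log2 fold change 5.81 ± 0.71 SE, adjusted p = 0.0102) although its d3F level was only 1.22 and 0.877 TPM, and Sox2 fell. Of 12 T-box genes, 3 were called higher and 0 lower, and of 5 Gata genes 2 were called higher and 0 lower (3 and 1 with the block). Of 23 Klf and Sp factors, 3 were called lower and 0 higher. The 4 Hox cluster genes that passed the filter, of 39 in the tables, all had negative log2 fold changes, and 1 was called lower.

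The 15 largest increases were taken among called genes whose mean reached 1 in the deposited TPM of either population. Among them Klhl6, an adaptor of a ubiquitin ligase, stood at 0.0876 and 0.176 TPM in d0 and 17.1 and 78.8 TPM in d3F (log2 fold change 8.38 ± 0.99 SE, adjusted p = 0.00903). Fgf8, a gastrulation ligand, stood at 2.32 and 2.28 TPM in d0 and 197 and 211 TPM in d3F (log2 fold change 6.29 ± 0.43 SE, adjusted p = 0.0022). Among these 15 genes Fgf8 was the most abundant and its replicates were nearly equal in both populations. Pcsk5, a convertase that cleaves precursors of TGF-beta family ligands, rose from 0.11 and 0.176 TPM to 5.57 and 25.6 TPM (log2 fold change 6.63 ± 0.89 SE, adjusted p = 0.0103). Capn6, a calpain-like protein of microtubules, rose from 0.482 and 0.386 TPM to 28.4 and 49.8 TPM (log2 fold change 6.37 ± 0.72 SE, adjusted p = 0.00786). Usp18, which removes the ubiquitin-like protein Isg15, was at 0.153 and 0.14 TPM in d0 and 8 and 33.7 TPM in d3F (log2 fold change 7.01 ± 1.08 SE, adjusted p = 0.0144). Optc, Rgs5 and Camk1g were also among the 15, at 2.81 and 4.79, 3.54 and 3.88, and 5.13 and 3.01 TPM in d3F. Lhx1os, a noncoding gene beside Lhx1, was without a count in d0 and reached 4.02 and 9.84 TPM in d3F, at least 15.7-fold higher against a floor of 3 counts per library. The strand setting of the counting was not found in the sources used here, so reads of overlapping pairs such as Chrd and Thpo, Dnmt3l and Aire or Calcoco2 and Ttll6 cannot be told apart.

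In the Nodal and Activin list, 24 genes were tested, 2 were called higher and 2 lower. Cfc1, a Nodal coreceptor, rose from 0.766 and 1.05 TPM to 17.1 and 55.2 TPM (log2 fold change 5.20 ± 0.71 SE, adjusted p = 0.0112). It was called in every fit without a sample. Gdf3, a Nodal-like ligand, fell from 81.3 and 47.8 TPM to 23.2 and 8.46 TPM (log2 fold change -2.18 ± 0.43 SE, adjusted p = 0.0299). Pcsk6, a convertase of such ligands, fell to 2.61 and 0.971 TPM from 7.2 and 8.5 TPM (log2 fold change -2.34 ± 0.48 SE, adjusted p = 0.0337). Tdgf1, the other coreceptor, was not called, with log2 differences of 0.46 in replicate 1 and -0.87 in replicate 2. Lefty1, a feedback antagonist that shares reads with its paralog Lefty2, was at 44.9 and 119.7 TPM in d0 and 436 and 304 TPM in d3F, with a log2 fold change of 1.91 (adjusted p = 0.176) that was called with the block (adjusted p = 0.0472). With the block 5 members were called higher and 3 lower.

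In the Wnt list 39 genes were tested, 8 were called higher and 0 lower, and the median log2 fold change was 0.95. Without d0 replicate 2 or d3F replicate 2, 4 were called higher. Wnt11, a ligand of cell movement, rose from 0.285 and 0.421 TPM to 9.38 and 9.59 TPM (log2 fold change 4.53 ± 0.43 SE, adjusted p = 0.00414). Wnt5a, a ligand of the same kind, reached 2.17 and 2.63 TPM from 0.35 and 0.456 TPM (log2 fold change 2.49 ± 0.52 SE, adjusted p = 0.0348) but was called in 0 of the 6 fits without a sample. Secreted antagonists rose with them. Frzb stood at 0.241 and 0.0702 TPM in d0 and 3.34 and 6.61 TPM in d3F (log2 fold change 5.04 ± 0.69 SE, adjusted p = 0.011), Sfrp1 at 5.28 and 3.34 TPM in d0 and 26.1 and 42.3 TPM in d3F (log2 fold change 2.91 ± 0.39 SE, adjusted p = 0.0103) and Dkk1 at 0.131 and 0.667 TPM in d0 and 7.03 and 15.5 TPM in d3F (log2 fold change 4.65 ± 0.95 SE, adjusted p = 0.0336). Among receptors, Fzd8 rose from 2.98 and 1.26 TPM to 17 and 24.4 TPM (log2 fold change 3.24 ± 0.51 SE, adjusted p = 0.0151), and Lgr5, which binds R-spondins, reached only 1.79 and 0.971 TPM (log2 fold change 4.37 ± 0.67 SE, adjusted p = 0.0144). Ctnnb1 (beta-catenin) differed by less than the spread, with a log2 fold change of 0.15 ± 0.30 SE. Wnt2, named as 1 of 3 called among 15 Wnt ligands, went from 0.657 and 0.0702 TPM to 3.38 and 16.8 TPM (log2 fold change 4.87 ± 1.05 SE, adjusted p = 0.0397) and was lost with the block (adjusted p = 0.0525).

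In the BMP list some antagonists rose, and of the ligands Bmp2 and Bmp5 alone were called. Of 25 genes tested, 6 were called higher and 0 lower, with a median of 1.23. Without d0 replicate 2 or d3F replicate 2, 3 were called higher. Bmp2 rose from 0.197 and 0.281 TPM to 6.7 and 6.33 TPM (log2 fold change 4.56 ± 0.52 SE, adjusted p = 0.00786). Bmp5 went from 0.0219 and 0.0351 TPM to 1.11 and 3.26 TPM (log2 fold change 5.64 ± 0.92 SE, adjusted p = 0.0167). Of the antagonists, Cer1, which binds Nodal, BMP and Wnt ligands, rose from 1.31 and 0.421 TPM to 50 and 52.1 TPM (log2 fold change 5.81 ± 0.50 SE, adjusted p = 0.00269). Chrd was at 0.438 and 0.281 TPM in d0 and 23.8 and 9.15 TPM in d3F (log2 fold change 5.35 ± 0.53 SE, adjusted p = 0.00474), and Nog at 0.832 and 0.456 TPM in d0 and 8.85 and 9.93 TPM in d3F (log2 fold change 3.77 ± 0.60 SE, adjusted p = 0.0151). Grem1, another antagonist, had too few counts to be tested, at 0.438 and 0.105 TPM in d0 and 0 TPM in both d3F samples. Smad1, which carries the signal to the nucleus, rose with a log2 fold change of 1.75 ± 0.39 SE, adjusted p = 0.042. The Id genes, which BMP signals commonly induce, were not called. Id1 had 144 and 106 TPM in d0 and 26.9 and 84.3 TPM in d3F, Id2 had 73.1 and 15.5 TPM in d0 and 10.8 and 4.17 TPM in d3F (log2 fold change -2.62, adjusted p = 0.0638), and Id2 was called lower with the block (adjusted p = 0.00972). Id3 had a log2 fold change of 0.50 (adjusted p = 0.517).

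Of 13 Fgf ligands tested, 3 were called higher and 1 lower. Fgf4, the ligand of the ESC state, fell from 39.4 and 42.4 TPM to 6.08 and 2.35 TPM (log2 fold change -3.48 ± 0.46 SE, adjusted p = 0.0103). Beside Fgf8, Fgf5, a marker of the primed epiblast, rose from 7.84 and 0.562 TPM to 95.4 and 53.7 TPM (log2 fold change 4.14 ± 0.88 SE, adjusted p = 0.0373). Fgf10 rose from 0.153 and 0.211 TPM to 6.24 and 25.1 TPM (log2 fold change 6.39 ± 0.82 SE, adjusted p = 0.0103). In the whole FGF and ERK list, 24 genes were tested with 5 called higher and 1 lower, and the median was -0.04. Of the feedback genes that ERK signalling induces, Dusp6 had a log2 fold change of -0.15, Dusp4 of -0.08, Etv5 of -1.54 and Spry2 of -1.57, with adjusted p = 0.882, 0.922, 0.0764 and 0.0597, and Spry2 was called lower with the block (adjusted p = 0.0448). Il17rd, a membrane inhibitor of FGF signalling, rose (log2 fold change 1.64 ± 0.32 SE, adjusted p = 0.0305), and so did Fgfr3 (log2 fold change 1.99 ± 0.41 SE, adjusted p = 0.0334).

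Of 16 retinoic acid genes, 3 were called higher and 0 lower, with a median of 0.11, and 8 had positive and 8 negative log2 fold changes. Cyp26a1, the enzyme that degrades retinoic acid, stood at 8.54 and 5.16 TPM in d0 and 129 and 152 TPM in d3F (log2 fold change 4.28 ± 0.38 SE, adjusted p = 0.00279), with close replicates and a call in each fit without a sample. Dhrs3, which turns retinal back into retinol, rose from 2.36 and 0.948 TPM to 18.4 and 9.43 TPM (log2 fold change 3.04 ± 0.47 SE, adjusted p = 0.0146). The receptor gene Rarb reached 1.17 and 2.66 TPM from 0.35 and 0.14 TPM (log2 fold change 2.97 ± 0.60 SE, adjusted p = 0.033), while Rarg was not called (33.5 and 30.6 TPM in d0 and 22.2 and 8.39 TPM in d3F). Crabp1 and Crabp2 were not called either, with log2 fold changes of -2.13 and -2.12 (adjusted p = 0.0538 and 0.0753). Crabp1, at 17.3 and 22.9 TPM in d0 and 6.97 and 3.57 TPM in d3F, was called lower with the block (adjusted p = 0.0445). In the Notch list 2 of 18 were called higher and 0 lower. Hes1, a target repressor, rose from 23.5 and 9.45 TPM to 82.6 and 84.4 TPM (log2 fold change 2.29 ± 0.38 SE, adjusted p = 0.0177), and Notch3 rose from 13.8 and 7.83 TPM to 35.3 and 51.1 TPM (log2 fold change 1.92 ± 0.37 SE, adjusted p = 0.028). In the Hedgehog list 2 of 13 were called higher and 0 lower. Shh, the ligand of node and notochord, was low at 0.0219 and 0.105 TPM in d0 and 2.08 and 1.25 TPM in d3F (log2 fold change 4.30 ± 0.83 SE, adjusted p = 0.0284), and its coreceptor Gas1 rose to 5.15 and 8.05 TPM from 1.66 and 0.702 TPM (log2 fold change 2.43 ± 0.52 SE, adjusted p = 0.0384). The receptor Ptch1, a common target of the pathway, had a log2 fold change of 0.63 (adjusted p = 0.362). These smaller counts moved when a sample was left out. Without d3F replicate 2 they were 2 in the FGF list, 2 in the retinoic acid list and 0 in the Notch and Hedgehog lists, and without d0 replicate 2 they were 3, 1, 0 and 1.

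Of 24 migration and guidance genes, 9 were called higher and 0 lower, with a median of 1.04. The count higher was 2 without d3F replicate 2 and 6 without d0 replicate 2 or either d5FS sample. Aplnr, the apelin receptor, rose from 0.0219 and 0.105 TPM to 11.9 and 6.89 TPM (log2 fold change 6.83 ± 0.92 SE, adjusted p = 0.0103). Of its ligands, Apln rose from 1.6 and 0.176 TPM to 21.8 and 5.76 TPM (log2 fold change 3.90 ± 0.90 SE, adjusted p = 0.0495), while Apela was abundant and not called, at 162 and 85.1 TPM in d0 and 213 and 78.8 TPM in d3F. Cxcr4, a chemokine receptor used to sort endoderm, rose from 0.985 and 1.48 TPM to 9.13 and 29.6 TPM (log2 fold change 3.86 ± 0.79 SE, adjusted p = 0.0331). Sema3a, a secreted repellent, was at 0.131 and 0 TPM in d0 and 2.34 and 6.23 TPM in d3F (log2 fold change 5.77 ± 0.87 SE, adjusted p = 0.014), Sema6d reached 1.24 and 1.75 TPM (log2 fold change 3.57 ± 0.61 SE, adjusted p = 0.019), and Plxna2, a semaphorin receptor, reached 3.65 and 3.82 TPM (log2 fold change 3.17 ± 0.39 SE, adjusted p = 0.0103). Over all 27 semaphorins and plexins tested, 6 were called higher and 1 lower. Ntn1 was not called, with a log2 difference of 3.02 in replicate 1 and -0.003 in replicate 2.

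Among genes of epithelial to mesenchymal change 4 of 21 were called higher and 0 lower, with a median of 0.49, and 0 were called without d3F replicate 2. Vim (vimentin) rose from 72 and 75.2 TPM to 378 and 688 TPM (log2 fold change 2.74 ± 0.45 SE, adjusted p = 0.0171). Cdh2 (N-cadherin) rose from 3.85 and 0.772 TPM to 18.3 and 20.7 TPM (log2 fold change 3.06 ± 0.58 SE, adjusted p = 0.0264), and Cdh11 from 0.679 and 0.176 TPM to 6.04 and 14.4 TPM (log2 fold change 4.58 ± 0.68 SE, adjusted p = 0.014). Zeb2, a repressor of E-cadherin, was called at low level (0.372 and 0.246 TPM in d0 and 1.13 and 1.6 TPM in d3F) and in 0 of the 6 fits without a sample. Cdh1 (E-cadherin) stood at 148 and 70.5 TPM in d0 and 132 and 65.4 TPM in d3F, so that both populations overlapped, with a log2 fold change of -0.26 ± 0.37 SE. Epcam had a log2 fold change of -0.51 (adjusted p = 0.626) and Cldn6 of 0.59 (adjusted p = 0.378), and edgeR called 0 of 11 claudins (1 higher and 1 lower at an unadjusted p under 0.05, 1 lower by DESeq2). Among 53 cadherins and protocadherins, 4 were called higher and 0 lower, Pcdh7 with the largest change (0.81 and 0.246 TPM in d0 and 18.8 and 22.1 TPM in d3F, log2 fold change 5.28 ± 0.47 SE, adjusted p = 0.00282). Of 13 keratins 3 were called higher and 2 lower. Krt18 rose from 245 and 121 TPM to 519 and 854 TPM (log2 fold change 1.86 ± 0.42 SE, adjusted p = 0.0442) and Krt19 from 57.5 and 16.9 TPM to 185 and 270 TPM (log2 fold change 2.60 ± 0.49 SE, adjusted p = 0.026).

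Of 38 collagens, 7 were called higher and 0 lower (7 and 3 with the block), with a median of 0.68, and 2 were called without d3F replicate 2. Col4a1 and Col4a2, the chains of the basement membrane collagen, lie head to head in the genome, and rose from 7.99 and 5.23 TPM to 21.7 and 33.1 TPM (log2 fold change 1.97 ± 0.36 SE, adjusted p = 0.0247) and from 3 and 2.84 TPM to 11.1 and 20.8 TPM (log2 fold change 2.34 ± 0.43 SE, adjusted p = 0.0248). Col23a1, a membrane collagen, rose from 0.241 and 0.176 TPM to 5.88 and 13.3 TPM (log2 fold change 5.46 ± 0.61 SE, adjusted p = 0.00786). Serpinh1, the chaperone that folds collagens, rose from 76 and 42.4 TPM to 248 and 406 TPM (log2 fold change 2.40 ± 0.41 SE, adjusted p = 0.0182). Adamts9, a matrix protease, was at 0.941 and 0.702 TPM in d0 and 19.4 and 20.3 TPM in d3F (log2 fold change 4.47 ± 0.37 SE, adjusted p = 0.0024). Laminin Lamb1 and integrin Itgb1 were not called, with log2 fold changes of 0.90 and 0.75 (adjusted p = 0.182 and 0.392). The summed level of the feeder list was 23.6 and 19.3 TPM in d0 and 48.7 and 63.7 TPM in d3F, where 6 of its 10 tested members had positive and 4 negative log2 fold changes. Of these 10, 2 were called higher, Col1a2, itself a collagen (0.219 and 0.702 TPM in d0 and 3.12 and 11.5 TPM in d3F), and Acta2 (7.55 and 5.93 TPM in d0 and 21.9 and 22.5 TPM in d3F). Lum, a marker of such cells, was at or under 0.0438 TPM in all 4 samples. The part of feeder cells in the collagen rise was not tested.

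On the other side of the comparison, all 19 naive pluripotency genes tested had negative log2 fold changes, 13 were called lower and 0 higher, and the median was -3.37. Dppa3, a maternal factor that protects methylation, fell from 117 and 209 TPM to 9.24 and 7.17 TPM (log2 fold change -4.53 ± 0.52 SE, adjusted p = 0.00786) and was the only member called in each fit without a sample. Over the list, 1 gene was called lower without d3F replicate 2, 7 without d0 replicate 2 or d3F replicate 1 and 8 without either d5FS sample. Tdh, the threonine dehydrogenase on which mouse ESCs depend, fell from 101 and 283 TPM to 13.3 and 7.33 TPM (log2 fold change -4.50 ± 0.64 SE, adjusted p = 0.0126). Gbx2, a target of Stat3, fell from 6.09 and 12.5 TPM to 0.287 and 0.188 TPM (log2 fold change -5.48 ± 0.76 SE, adjusted p = 0.0114). Nr5a2, a nuclear receptor, went to 0.509 and 0.345 TPM from 4.01 and 8.43 TPM (log2 fold change -4.08 ± 0.65 SE, adjusted p = 0.0151). Klf2 fell (log2 fold change -3.30 ± 0.56 SE, adjusted p = 0.0178), as did Klf5 (log2 fold change -1.81 ± 0.41 SE, adjusted p = 0.0461), which was called in 0 of the 6 fits without a sample. Nanog was not called, and its replicates disagreed, with a log2 difference of 0.43 within replicate 1 and -2.43 within replicate 2.

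The d0 replicates themselves stood apart in these genes. The study's sample list names the paired libraries of a population differently, as mRNA and totRNA, without saying which replicate is which. The part of library type in this gap was not tested. All 19 naive genes were higher in d0 replicate 2 than in replicate 1, with a median log2 difference of 1.92, where 7250 of all 14539 genes tested were higher in replicate 2. Of 16 formative and primed genes, 11 were higher in d0 replicate 1, with a median log2 difference between replicate 2 and replicate 1 of -1.09. Nes was at 48.4 TPM in d0 replicate 1 and 3.27 TPM in replicate 2, and at 55.9 and 32.5 TPM in d3F. In d3F, 14 of the 19 naive genes were higher in replicate 1, with a median of -0.28. All 6 falling genes named above (Dppa3, Tdh, Gbx2, Nr5a2, Klf2 and Klf5) changed more within replicate 2. Of the formative and primed list, 3 of 16 were called higher and 0 lower, with a median of -0.05, and Dnmt3b had a log2 fold change of -0.25 ± 0.37 SE.

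Of 18 core and general pluripotency genes, 6 were called lower and 0 higher, with a median of -0.99. Without d3F replicate 2 the count was 2, without d0 replicate 2 it was 3, and without d3F replicate 1 or either d5FS sample it was 4. Dppa4 fell from 126 and 151 TPM to 8.07 and 5.86 TPM (log2 fold change -4.50 ± 0.37 SE, adjusted p = 0.0024), and its partner Dppa2, with which it binds chromatin, fell from 51.6 and 42.7 TPM to 2.37 and 0.783 TPM (log2 fold change -5.08 ± 0.50 SE, adjusted p = 0.00463). Both were called in each fit without a sample, and their d0 replicates were close. Pou5f1 was not called, at 1080 and 1278 TPM in d0 and 898 and 401 TPM in d3F (log2 fold change -1.07, adjusted p = 0.175), and Lin28a had a log2 fold change of 0.09 ± 0.37 SE. In the LIF and Stat3 list, 4 of 13 were called lower and 0 higher, with 0 called lower without d3F replicate 2, 1 without d0 replicate 2 or d3F replicate 1 and 2 without either d5FS sample. Pim1, a Stat3 target kinase, fell from 76.2 and 93.6 TPM to 24.6 and 25 TPM (log2 fold change -1.94 ± 0.45 SE, adjusted p = 0.0491). Socs3, the feedback inhibitor, was not called, at 22.8 and 36.8 TPM in d0 and 11.1 and 23.4 TPM in d3F, and Stat3 itself had a log2 fold change of -0.17 (adjusted p = 0.852).

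Among DNA methylation enzymes, 1 of 9 was called, and the fall was large. Dnmt3l, the catalytically inactive partner of the de novo methyltransferases, fell from 269.6 and 316 TPM to 9.73 and 8.9 TPM (log2 fold change -5.15 ± 0.37 SE, adjusted p = 0.0022), with close replicates in both populations and a call in each fit without a sample. Dnmt1 was measured at 76.6 and 76.3 TPM in d0 and 71.7 and 72.2 TPM in d3F (log2 fold change -0.24 ± 0.33 SE), and Uhrf1, which guides Dnmt1, at 95.9 and 163 TPM in d0 and 95.7 and 136 TPM in d3F (adjusted p = 0.801).

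Like the naive genes, most germline genes tested were called lower. These genes of meiosis and of the piRNA pathway, which silences transposons, are held off in somatic cells by DNA methylation and by Polycomb complexes that include E-box binding factors. Of 20 such genes 16 were tested, 11 were called lower and 0 higher, and the median was -3.90. Without d3F replicate 2 the count was 0, and without d3F replicate 1 it was 6. Mov10l1, a helicase of piRNA production, fell from 1.97 and 1.54 TPM to 0.0442 and 0.0626 TPM (log2 fold change -5.25 ± 0.63 SE, adjusted p = 0.00942). Mael, a piRNA pathway protein, fell from 10.4 and 7.87 TPM to 0.619 and 0.188 TPM (log2 fold change -4.61 ± 0.60 SE, adjusted p = 0.0103). Sycp3, a protein of the synaptonemal complex that is named for its promoter below, fell from 7.84 and 7.65 TPM to 1.06 and 0.564 TPM (log2 fold change -3.43 ± 0.56 SE, adjusted p = 0.0162). All 3 genes had groups that did not overlap, with d3F samples near 1 TPM or less. Tex19.1, a germ cell protein, fell from 33 and 101 TPM to 3.63 and 2.07 TPM (log2 fold change -4.83 ± 0.71 SE, adjusted p = 0.0135), and Taf7l, a germ cell transcription factor subunit, from 2.43 and 1.86 TPM to 0.133 and 0.0313 TPM (log2 fold change -4.67 ± 0.77 SE, adjusted p = 0.0169). Slc25a31, an ADP/ATP carrier of the testis, fell from 1.03 and 0.702 TPM to 0.0221 and 0.0626 TPM (log2 fold change -4.13 ± 0.79 SE, adjusted p = 0.0272) but was called in 0 of the 6 fits without a sample. Sycp1 missed the threshold at 4.03 and 3.65 TPM in d0 and 0.951 and 0.783 TPM in d3F (log2 fold change -2.31, adjusted p = 0.0536) and was called with the block (adjusted p = 0.0361), and Tdrkh, another piRNA gene, had a log2 fold change of 0.41. Sycp2, Asz1, Dpep3 and Fkbp6 had too few counts to be tested, and none exceeded 0.913 TPM in d0 or 0.0442 TPM in d3F.

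Many promoters of these germline genes held the same short sequence. RefSeq promoters (build GRCm38.p6, the 250 bases before the start site furthest upstream) were matched for 19 of the 20 genes and searched on both strands for 9 short motifs. The palindromic E-box CACGTG was in 11 of the 19 (57.9%), against 1633 of all 27025 promoters in the reference table (6.04%) and 8.40% of the tested genes that have one, which are 78.9% of the tested genes. Genes with and without the E-box had near-equal medians. Of 10 tested genes with an E-box 7 were called lower, with a median log2 fold change of -3.91, and of 5 tested genes without one 3 were called lower, with a median of -3.87. The promoters below are those of the 5 E-box genes whose window reaches into no annotated gene, and are shown 5′ to 3′ on the strand of the gene with each CACGTG in capitals.

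In Sycp3 (chr10:88459337-88459586, plus strand) and Hormad1 (chr3:95559427-95559676, plus strand) the motif occurs at 2 places, which begin 64 and 43 bases and 57 and 20 bases before the start site. It begins 93 bases before the start of Slc25a31 (chr3:40708621-40708870, plus strand), 94 bases before that of Sycp1 (chr3:102936101-102936350, minus strand) and 223 bases before that of Mael (chr1:166238745-166238994, minus strand).
Mael: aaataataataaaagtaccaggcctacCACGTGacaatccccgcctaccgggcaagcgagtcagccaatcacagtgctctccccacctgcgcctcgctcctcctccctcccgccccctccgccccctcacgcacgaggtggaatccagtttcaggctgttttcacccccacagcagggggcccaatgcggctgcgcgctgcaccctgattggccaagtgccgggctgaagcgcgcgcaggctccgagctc
Sycp1: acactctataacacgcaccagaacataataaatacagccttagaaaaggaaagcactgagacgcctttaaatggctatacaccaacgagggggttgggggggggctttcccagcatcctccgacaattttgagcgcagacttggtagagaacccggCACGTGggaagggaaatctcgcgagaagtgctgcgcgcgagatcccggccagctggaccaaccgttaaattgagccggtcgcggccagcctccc
Sycp3: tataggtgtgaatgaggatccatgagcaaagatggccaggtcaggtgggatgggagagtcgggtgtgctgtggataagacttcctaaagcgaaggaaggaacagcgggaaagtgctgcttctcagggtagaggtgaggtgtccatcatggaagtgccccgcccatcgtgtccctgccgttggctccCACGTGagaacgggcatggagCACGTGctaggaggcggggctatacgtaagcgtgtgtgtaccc
Hormad1: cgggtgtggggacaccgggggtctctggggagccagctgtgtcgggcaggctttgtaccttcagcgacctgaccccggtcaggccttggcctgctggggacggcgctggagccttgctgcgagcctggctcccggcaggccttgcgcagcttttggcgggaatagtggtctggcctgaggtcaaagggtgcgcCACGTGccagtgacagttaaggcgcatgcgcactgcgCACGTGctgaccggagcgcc
Slc25a31: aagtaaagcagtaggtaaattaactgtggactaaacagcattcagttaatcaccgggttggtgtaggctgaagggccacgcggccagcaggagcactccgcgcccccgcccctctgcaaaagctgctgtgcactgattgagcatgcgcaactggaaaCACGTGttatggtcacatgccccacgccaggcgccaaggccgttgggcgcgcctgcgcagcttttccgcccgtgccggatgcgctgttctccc

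Among the 18 mesendoderm factors, 15 promoters were matched, and the Tcf/Lef motif CTTTGAT was in 3 of them (20.0%), those of Mesp1, Msgn1 and Sp5, against 881 (3.26%) of all promoters. The E-box was in 0 of these 15, and 0 also held the forkhead motif TGTTTAC (3.06% of all promoters), the T-box motif TCACACCT (1.14%), the Foxh1 motif AATCCACA (0.755%) or the sterol motif TCACCCCAC (0.47%). The bicoid-type motif TAATCC, the GATA motif AGATAA and the octamer ATGCAAAT were each in 1 of the 15 (6.67%), against 6.37, 10.2 and 1.62% of all promoters, and 5.01, 5.73 and 1.44% of those of the tested genes. Of the 19 germline promoters the T-box motif was in 2, the GATA motif in 1 and each of the other motifs but the E-box in 0. For all genes called higher or lower and for the cholesterol and naive lists fewer than 80% of the genes had a promoter in the table, so no share is given for them.

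**Figure D4:**
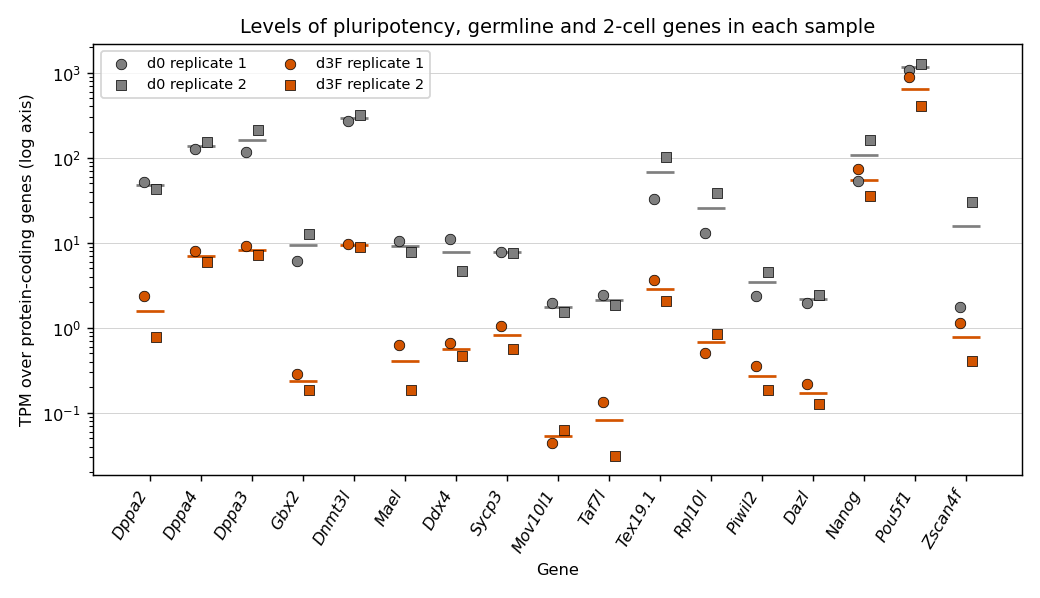
Levels in TPM over protein-coding genes (log axis) of 17 genes from the pluripotency, DNA methylation, germline and 2-cell lists, with grey points for d0, orange points for d3F, circles for replicate 1, squares for replicate 2 and a line at the mean of each pair. Groups are apart for every gene but Nanog, where d3F replicate 1 (73.9 TPM) lies above d0 replicate 1 (52.8 TPM), and the d0 points of Zscan4f are 1.75 and 29.9 TPM.

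The 15 largest decreases were taken above the same level as the increases. Among them Hist1h2aa and Hist1h2ba, germ cell variants of histones H2A and H2B, fell from 58.9 and 138 TPM to 1.95 and 0.251 TPM (log2 fold change -6.72 ± 0.88 SE, adjusted p = 0.0103) and from 54.5 and 111 TPM to 2.37 and 1.75 TPM (log2 fold change -5.48 ± 0.85 SE, adjusted p = 0.0144). Of 67 histone cluster genes tested, these 2 (2.99%) were called lower and 0 higher, near the 1.90% called lower over all genes tested. Histone paralogs can share reads. Of 81 cytosolic ribosomal protein genes tested, 2 (2.47%) were called lower and 0 higher, also near the share over all genes tested. These were Rpl10l and Rpl39l, germline copies of ribosomal protein genes. Rpl10l was at 13.2 and 38.1 TPM in d0 and 0.509 and 0.846 TPM in d3F (log2 fold change -5.45 ± 0.79 SE, adjusted p = 0.0132) and Rpl39l at 13.5 and 46.3 TPM in d0 and 1.5 and 0.532 TPM in d3F (log2 fold change -5.15 ± 0.88 SE, adjusted p = 0.0187). Zp3, an egg coat protein, fell from 3.39 and 4.88 TPM to 0.0442 and 0 TPM (log2 fold change -7.08 ± 1.05 SE, adjusted p = 0.0137), and Khdc3, an oocyte protein, from 3.66 and 9.3 TPM to 0.199 and 0.157 TPM (log2 fold change -5.31 ± 0.80 SE, adjusted p = 0.014). Calcoco2, an autophagy receptor, fell from 25 and 61.1 TPM to 1.53 and 0.407 TPM (log2 fold change -5.74 ± 0.77 SE, adjusted p = 0.0103). Mylpf, a light chain of muscle myosin, was at 64.8 TPM in d0 replicate 1, 665 TPM in d0 replicate 2 and 5.71 and 5.48 TPM in d3F (log2 fold change -6.34 ± 1.12 SE, adjusted p = 0.0215). Aqp3, a water and glycerol channel, fell from 4.03 and 16.9 TPM to 0.31 and 0.157 TPM (log2 fold change -5.72 ± 0.95 SE, adjusted p = 0.0173). The pseudogenes Atp6v0c-ps2 and Apoo-ps, which share sequence with their parent genes, had 0 counts in both d3F samples. In d0 Atp6v0c-ps2 was uneven, at 33.9 TPM in replicate 1 and 2.25 TPM in replicate 2, and it was called in 2 of the 6 fits without a sample. Apoo-ps was at 6.94 and 4.07 TPM in d0 and was called in 3 of them.

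The 2-cell-like genes, which mark a rare ESC state that resembles the early embryo, rested on 1 sample. Zscan4f stood at 1.75 TPM in d0 replicate 1, 29.9 TPM in d0 replicate 2 and 1.15 and 0.407 TPM in d3F, and Zscan4c at 0.876, 20.6, 0.641 and 0.501 TPM in the same order. Of 6 tested edgeR called 0, with 5 lower at an unadjusted p under 0.05 and 4 lower by DESeq2, at a median log2 fold change of -4.29, and all 6 were higher in d0 replicate 2 than in replicate 1. Without d0 replicate 1, genes of the list were called lower, some of which had too few counts to be tested with all samples. Members of the Zscan4 cluster are near-identical and their reads cannot be assigned with certainty.

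Several groups had few called members or none. Over all genes tested only 4.70% were called, so small counts are common and do not by themselves set these groups apart. Of 22 glycolysis enzymes edgeR called 0 (2 lower at an unadjusted p under 0.05, 1 lower by DESeq2), with a median of -0.07, and Pkm stood at 2609 and 2653 TPM in d0 and 2425 and 2567 TPM in d3F. Of 22 cell cycle genes edgeR called 0 (4 higher and 1 lower at an unadjusted p under 0.05, and the same numbers by DESeq2), with a median of -0.11, Ccne1 being lowest at -1.70 (adjusted p = 0.104) and Cdk4 at 0.06 ± 0.29 SE. None of 77 mitochondrial ribosomal protein genes and none of 77 respiratory chain and ATP synthase genes was called, with medians of -0.24 and -0.05, and 1 gene of each group had an unadjusted p under 0.05, while DESeq2 called 0 and 1. With the block these counts became 1 higher and 1 lower for glycolysis, 4 higher for the cell cycle, 0 for the mitochondrial ribosome and 1 higher for the respiratory chain. Of 26 chromatin regulators 1 was called, Eed, a subunit of Polycomb complex PRC2, which fell from 102 and 118 TPM to 56.2 and 43.5 TPM (log2 fold change -1.32 ± 0.31 SE, adjusted p = 0.0497).

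In cholesterol synthesis the differences were small and of 1 sign. All 22 genes tested had positive log2 fold changes, from 0.12 to 1.74, with a median of 1.17, and 4 were called higher and 0 lower, a count that grew to 15 with the replicate block and fell to 0 without d3F replicate 1 or 2 and to 2 without any other sample. Msmo1, a sterol demethylation enzyme, rose from 78.1 and 77 TPM to 332 and 248 TPM (log2 fold change 1.74 ± 0.33 SE, adjusted p = 0.026). Cyp51, the lanosterol demethylase, rose from 32.8 and 27.1 TPM to 100.5 and 102 TPM (log2 fold change 1.63 ± 0.29 SE, adjusted p = 0.0234). Sc5d, a late enzyme of the pathway, rose from 15.6 and 9.09 TPM to 37.1 and 34.1 TPM (log2 fold change 1.43 ± 0.30 SE, adjusted p = 0.0384). Hmgcs1, an early enzyme, stood at 91.8 and 69.7 TPM in d0 and 257 and 149 TPM in d3F and was called with the block (adjusted p = 0.033) but not without (adjusted p = 0.104). Fdps stood at 183 and 483 TPM in d0 and 837 and 1140 TPM in d3F, where d0 replicate 2 lay above d0 replicate 1, and the within-replicate log2 differences were 2.15 and 1.02. It was not called (adjusted p = 0.22) but was called with the block (adjusted p = 0.0381).

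Of 21 imprinted genes, 2 were called higher and 1 lower. Grb10, a growth factor receptor adaptor, rose from 39.6 and 27 TPM to 139 and 225 TPM (log2 fold change 2.37 ± 0.40 SE, adjusted p = 0.0177), Mest rose from 94.8 and 33.5 TPM to 271 and 398 TPM (log2 fold change 2.35 ± 0.48 SE, adjusted p = 0.0324), and Phlda2, which restrains placental growth, fell from 134 and 86.9 TPM to 42.9 and 21.6 TPM (log2 fold change -1.91 ± 0.44 SE, adjusted p = 0.0491). Of 16 immediate early genes Fos was called higher (4.36 and 1.3 TPM in d0 and 17.9 and 16.7 TPM in d3F, log2 fold change 2.56 ± 0.51 SE, adjusted p = 0.0314) and Junb was not (0.06, adjusted p = 0.962). Of 338 zinc finger genes named Zfp that were tested, 4 (1.18%) were called higher and 5 (1.48%) lower. Both shares were below the 2.80% and 1.90% over all genes tested. Those called lower included Zfp936 (16.6 and 13.4 TPM in d0 and 1.02 and 0.439 TPM in d3F), Zfp600 (9.59 and 7.58 TPM in d0 and 1.06 and 0.47 TPM in d3F) and Zfp534 (23.4 and 21.1 TPM in d0 and 2.63 and 2 TPM in d3F), at adjusted p = 0.0103, 0.0103 and 0.0102. Such genes have close paralogs that can share reads.

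**Figure D5:**
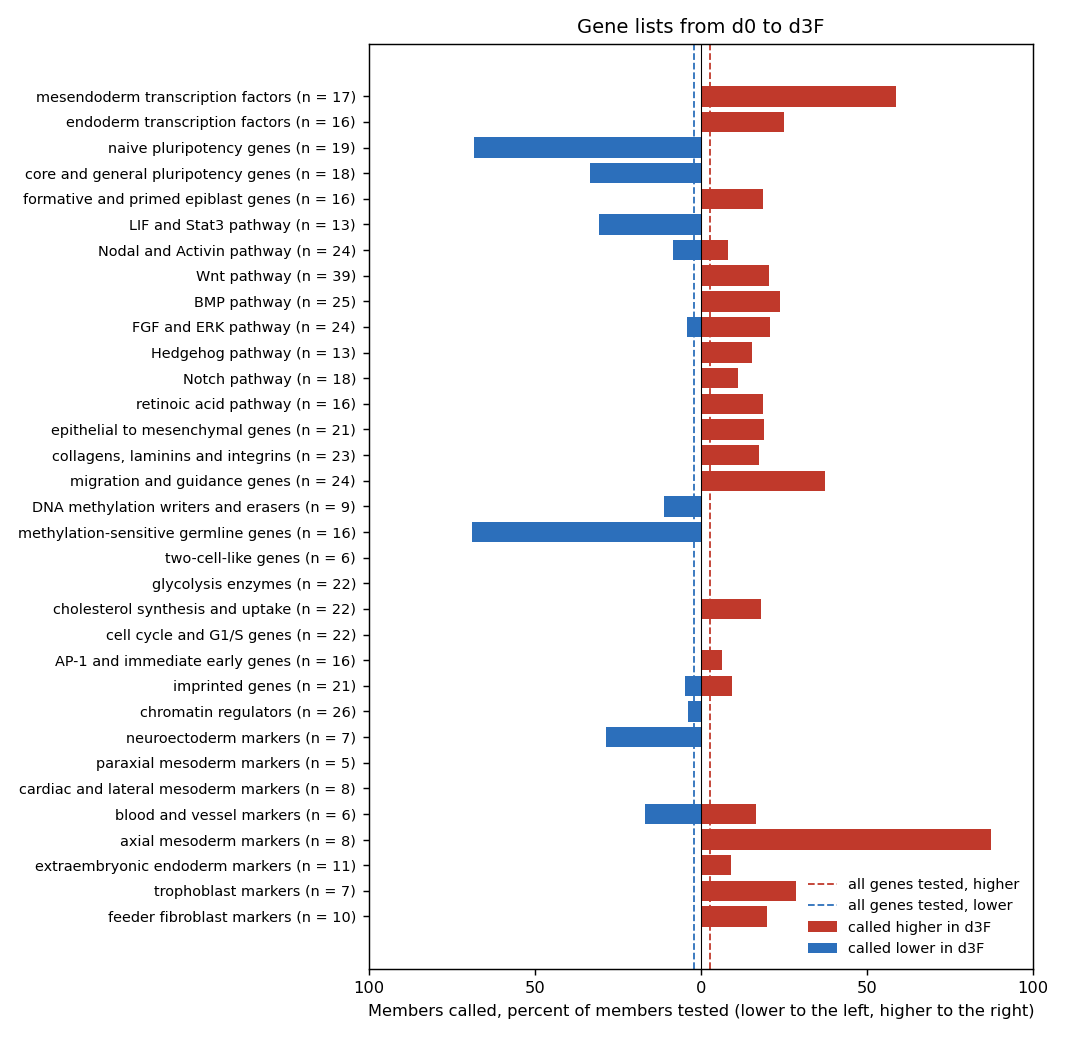
Share of the tested members of each gene list that were called higher (red, to the right) or lower (blue, to the left) in d3F, with the number tested in brackets and dashed lines at 2.80% and 1.90%, the shares over all genes tested. Axial mesoderm markers and mesendoderm factors reach farthest right, and germline and naive pluripotency genes farthest left, at 11 of 16 and 13 of 19 members.

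Markers of other lineages were checked in the same way. Axial mesoderm is the lineage of node and notochord and shares Foxa2 with endoderm. Its list is not specific to that lineage. T and Noto are also in the mesendoderm list, and the paper names Cer1 as a marker of anterior endoderm. T and Cer1 made up most of the summed level of the list in d3F. Its list, of which T, Noto, Shh, Cer1, Chrd and Nog were also described above, had 7 of 8 markers called higher (4 without d0 replicate 2 or either d3F sample), and its summed level went from 22.1 and 5.69 TPM in d0 to 282 and 139 TPM in d3F. Foxj1, which drives the cilia of the node, rose from 3.59 and 1.23 TPM to 52.6 and 15.2 TPM (log2 fold change 3.69 ± 0.61 SE, adjusted p = 0.0173). Bicc1 had a log2 fold change of 2.50 (adjusted p = 0.0609) and was called with the block (adjusted p = 0.0446). By edgeR 0 of 5 paraxial and 0 of 8 cardiac or lateral mesoderm markers were called, where 3 higher and 1 lower and 3 higher had an unadjusted p under 0.05 and DESeq2 called 1 higher and 1 lower and 2 higher, with summed levels of 22.8 and 36.1 TPM in d0 and 35.8 and 23.0 TPM in d3F for paraxial and of 14.5 and 9.20 TPM in d0 and 28.3 and 62.0 TPM in d3F for cardiac and lateral markers. Meox1, a paraxial factor, had 0.131 and 0.456 TPM in d0 and 2.25 and 10.3 TPM in d3F and was called with the block (adjusted p = 0.00766), and Myl7, a cardiac myosin chain, had 6.79 and 6.6 TPM in d0 and 21.7 and 53.3 TPM in d3F (adjusted p = 0.0692).

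Of blood and vessel markers 6 were tested. Runx1, a blood stem cell factor, was called higher (0.482 and 0.246 TPM in d0 and 2.68 and 3.19 TPM in d3F) and Pecam1, an adhesion protein also made by ESCs, was called lower (6.48 and 9.73 TPM in d0 and 1.17 and 0.47 TPM in d3F), while Hba-x and Emcn were at 0 in all 4 samples and Hbb-y, an embryonic globin, at or under 0.14 TPM. Gata1 went from 0.328 and 0.843 TPM in d0 to 2.76 and 14.75 TPM in d3F (log2 fold change 3.75, adjusted p = 0.0577). It was called higher with the block (adjusted p = 0.0153). Of the tested markers 4 had positive and 2 negative log2 fold changes. The summed level of the list was 12.83 and 15.2 TPM in d0 and 13.55 and 25.22 TPM in d3F. Of 7 neuroectoderm markers tested, 2 were called lower, Tubb3 (63.7 and 71.6 TPM in d0 and 14.1 and 4.64 TPM in d3F, log2 fold change -3.07 ± 0.58 SE, adjusted p = 0.0264) and Neurod1 (6.11 and 1.02 TPM in d0 and 0.177 and 0.0313 TPM in d3F, log2 fold change -5.05 ± 1.01 SE, adjusted p = 0.0311). Of 11 extraembryonic endoderm markers 1 was called, Pdgfra, a receptor that early mesendoderm also carries, which rose from 0.263 and 0.105 TPM to 4.91 and 6.23 TPM (log2 fold change 4.80 ± 0.65 SE, adjusted p = 0.0108). Of 7 trophoblast markers tested, 2 were called higher, Eomes and Krt7 (7.01 and 5.62 TPM in d0 and 27.7 and 19.7 TPM in d3F, log2 fold change 1.76 ± 0.36 SE, adjusted p = 0.033), and Cdx2, a defining factor of that lineage, had 1.69 and 2.74 TPM in d0 and 1.13 and 0.47 TPM in d3F (adjusted p = 0.164).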

How the data were processed

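RNA was depleted of ribosomal RNA, and the authors aligned reads to mm10 with STAR and counted them with RSEM, versions and strandedness not given in the sources used here. In the study's sample list the paired libraries of a population carry different names, mRNA and totRNA, and which replicate number has which name is not stated. The deposited expected counts are RSEM estimates per gene without normalization. The deposited TPM are scaled for length and depth by the authors, and their FPKM were not used. TPM were rescaled to sum to the same total over protein-coding genes alone, a choice made after the data were seen, since these genes held 45.7, 28.5, 45.2 and 31.9% of the deposited TPM in the d0 and d3F samples.

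Expected counts were rounded and fitted with edgeR 4.0.16 (R 4.3.3, limma 3.58.1) over d0, d3F and d5FS, with filterByExpr, TMM factors, a prior count of 0.125 and 3 residual degrees of freedom. The SE is the log2 fold change over the square root of the F statistic. DESeq2 1.42.0 served as an alternative. Deviations from the population means of samples with the same replicate number correlated across genes (r = 0.314 between the d0 and d3F deviations, 0.324 between d0 and d5FS, 0.278 between d3F and d5FS, all above 0.1), so the numbers were taken to pair the samples. Fold changes, SE, adjusted p and calls are nevertheless from the fit without this pairing, unless another fit is named. That fit was kept because the study lists no covariate, and a gene it does not call may be called with the pairing. The fit with the replicate number as a block (2 residual degrees of freedom) called more genes and is given beside some of the results that it changed. The members and gene lists were chosen with earlier results of these data known. Named genes were the 5 markers, the 15 largest increases and 15 largest decreases among called genes whose mean reached 1 in the deposited TPM of either population, up to 6 called and 4 uncalled members of each list, up to 4 called members of each family with 3 or more called members, and list members too low to test. Sycp3 is outside this rule and was named after its values were seen. Floors of 3 counts cover counting error only. The pipeline was tested on simulated data. Promoter sequences are from RefSeq (GRCm38.p6). Python 3.11.15 was used for tables and figures. Some called list members are counted but not reported here by name.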

Additional observations from a re-analysis of the deposited data

How the results depend on the processing

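With the replicate block, 1320 genes were called, 810 higher and 510 lower, and 678 of the 683 reported calls were among them. Of the named genes, the block lost the calls of Lypd2 (adjusted p = 0.052), Otx2 (0.0505) and Wnt2 (0.0525) in edgeR. It called 3 endoderm factors lower beside 4 higher, 11 genes of the Wnt list higher and 1 lower, 9 of the BMP list higher and 1 lower, 14 solute carriers higher and 6 lower, 8 Zfp genes higher and 12 lower, and 2 paraxial mesoderm markers higher. In the FGF, retinoic acid, Notch and Hedgehog lists it called 5, 4, 3 and 3 higher and 3, 1, 2 and 1 lower. Of trophoblast markers it called 2 higher and 2 lower. It called 8 core pluripotency genes and 2 DNA methylation enzymes lower and 0 higher. Of chromatin regulators, histone cluster genes and cytosolic ribosomal protein genes it called 3 each lower and 0 higher. DESeq2's Wald test called 1516 genes, 861 higher and 655 lower, and its test against a log2 fold change of 1 called 384, 217 higher and 167 lower. The edgeR glmTreat test against the same fold change called 242, 143 higher and 99 lower. With no filter on low counts 1933 were called, 1101 higher and 832 lower. With the d0 and d3F samples alone 430 were called, 240 higher and 190 lower. With 1 sample left out the calls ranged from 97 to 977, those higher from 87 to 500 and those lower from 10 to 477. DESeq2 size factors, a minimum of 10 counts in 2 samples, protein-coding genes alone, and the 4 samples with the block gave 701, 690, 663 and 746 calls. No call of a named gene reversed. Across the alternatives, 3682 values of named genes kept their side of the threshold, 489 fell below it and 141 passed it. Of the counts of called members in lists and families, 526 moved while 1618 did not. The cause of these changes was not tested. The 3 residual degrees of freedom limit the power, and genes with few counts had wide errors.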
